A study of Mus musculus with 4 samples.

Results

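Before a messenger RNA leaves the nucleus its introns are cut out by the spliceosome, a machine assembled anew on each intron from small nuclear ribonucleoproteins (snRNPs) and many accessory proteins. SR proteins bind exons and recruit the machinery to nearby splice sites, hnRNP proteins coat nascent transcripts and often oppose that recruitment, and the snRNPs recognise the splice sites and carry the catalytic core. The intestinal epithelium renews from dividing Lgr5-positive cells at the crypt base, whose descendants stop dividing and become absorptive enterocytes on the villus. The genes described here are those whose symbols begin with Srsf, Hnrnp, Sf3a, Sf3b, Snrp, Prpf or U2af. They numbered 57 of the 12393 genes measured. They were 9 SR genes, 18 hnRNP genes, 21 snRNP genes (the Snrp and SF3 genes with Prpf3, Prpf6, Prpf8 and Prpf31) and 9 further genes, namely the U2AF genes and the remaining Prpf genes.

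RNA came from proximal intestinal epithelium of C57BL/6 mice aged 4 to 6 weeks. The stem group held wild-type Lgr5(hi) cells purified by flow cytometry (2 arrays). The enterocyte group held villus cells taken off with EDTA after conditional knockout of Atoh1, a transcription factor required for goblet, Paneth and enteroendocrine cells (2 arrays). The labels of both groups carry tamoxifen at 1 mg per day for 5 days and a wait of 5 days, and name neither the Cre line nor the animals behind each sample. Samples are called biological replicates, so p-values measure the spread between samples whose independence is not documented further. Cell type, genotype and isolation differ together between the groups and cannot be told apart.

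Array medians lay between 102.4 and 110.6 intensity units. Lgr5 read log2 11.33 and 10.96 on the stem arrays and 6.92 and 6.09 on the enterocyte arrays. Atoh1 read 7.43 and 7.71 against 5.06 and 5.28. All 8 measured stem cell markers were lower and all 9 enterocyte markers higher on the enterocyte arrays by limma. Other cell types moved with the groups too. Summed intensity of 6 goblet markers was 22805 and 24795 in the stem arrays against 494.7 and 673.5, and that of 7 enteroendocrine markers 8434.1 and 10529 against 614.54 and 681.95. For 4 Paneth markers it was 34448 and 47214 against 663.03 and 6069.9. Conversely, 9 lymphocyte markers summed to 605.29 and 853.48 in the stem and to 8528.2 and 11575 on the enterocyte arrays, with Ptprc below the background level of log2 5.95 in both stem arrays. Signal at the 3' end of the Gapdh control exceeded that at the 5' end by log2 1.70 and 1.92 in the stem and by 0.15 and 0.17 on the enterocyte arrays. The beta-actin controls gave 2.06 and 2.10 against 0.56 and 0.50. All 4 tuft cell markers were higher, 1 of 8 stroma and muscle markers was lower, and 0 of 2 red blood cell genes passed (0 at an unadjusted p under 0.05, limma). Spiked hybridisation controls differed as well. At the 3' end BioB read log2 7.94 and 8.14 on the stem arrays against 5.95 and 5.70 on the enterocyte arrays. BioC read 10.82 and 11.01 against 10.22 and 10.07, and BioDn 12.74 and 12.88 against 12.22 and 12.12. CreX was nearly level, at 14.30 and 14.30 against 14.29 and 14.24. The 5' ThrX probe set went the other way, at 6.23 and 6.27 against 7.86 and 7.60. The part of these cells, of RNA quality and of these control differences in the values below was not tested.

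Most genes of every class were lower in enterocytes. Of the 57 genes, 45 fell and 0 rose, while 12 missed the threshold (limma, adjusted p under 0.05 over all genes). At an unadjusted p under 0.05, 49 were lower and 1, Snrpn, was higher. That is 78.9% lower, where 22.4% of all genes were lower and 18.2% higher. The median log2 difference, enterocyte minus stem, was -1.08, against -0.0026 over all genes. At least 2-fold falls were seen in 33 of the 57, where 13.6% of all genes fell and 10.8% rose by that much. Both enterocyte arrays lay below both stem arrays for 52 of the genes, compared with 34.8% of all genes. The groups overlapped for Sf3a1, Sf3b4 and U2af1l4, and for Hnrnpll and Snrpn the enterocyte arrays were the higher pair, without passing the test. Splicing genes are bright on the array, and a comparison with other bright genes was chosen after the data were seen. Among the 2214 genes at or above the lower quartile of their levels (log2 9.75), 31.3% were lower in enterocytes, as were 35 of the 43 splicing genes in that range. In a bulk sample, fewer cells of a type and less RNA per cell cannot be told apart. In every fit that left out 1 array fewer genes passed, among the splicing genes and over all genes alike, fewest without a stem array. Such a fit leaves 1 array in a group, so only its median is given. The median stayed between -1.09 and -1.05 in these fits.

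**Figure D1:**
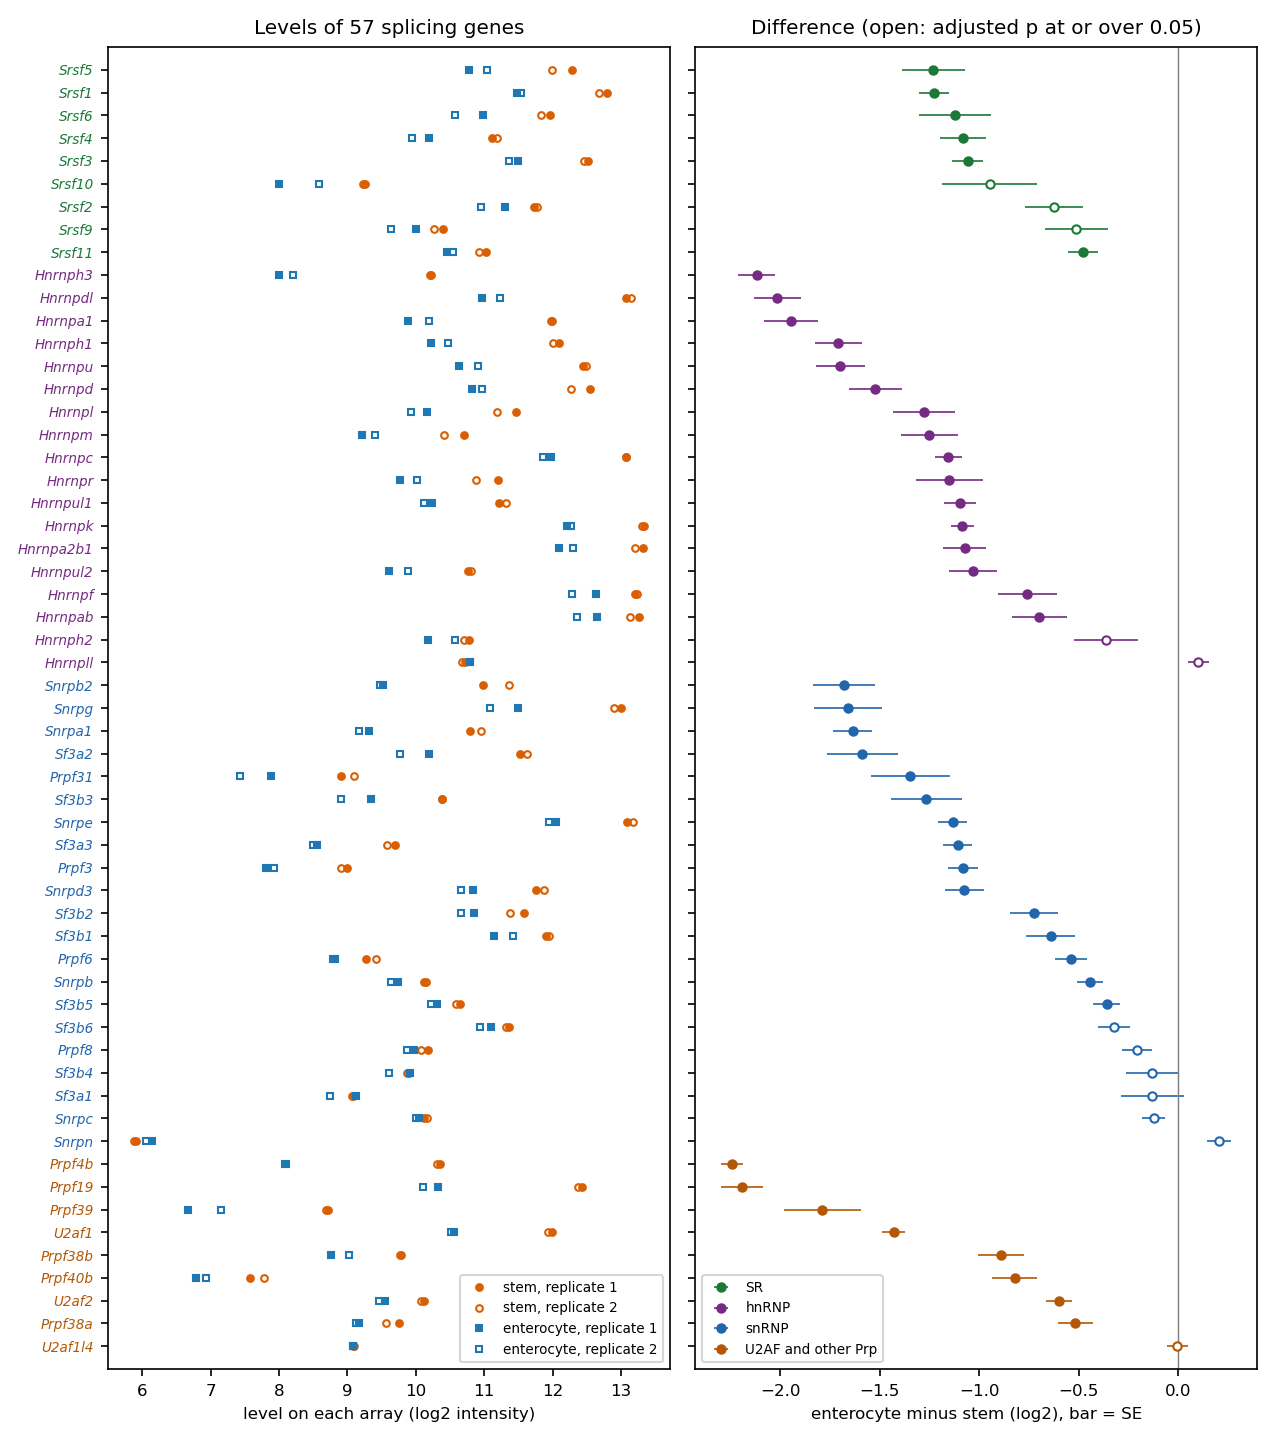
Left, the level of each of 57 splicing genes on each array (log2 intensity), with stem arrays as circles and enterocyte arrays as squares. Right, the log2 difference between the groups with limma's SE, coloured by class, open where adjusted p is 0.05 or more; 55 of the 57 points lie below 0, or 51 once arrays are centred on reference genes.

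Medians and spread differed among the classes. Among hnRNP genes 16 of 18 fell (88.9%), with a median of -1.15 and a middle range from -1.65 to -1.04. The SR genes showed 6 falls of 9 (66.7%), a median of -1.06 and the narrowest range, from -1.23 to -0.48. The snRNP genes showed 15 falls of 21 (71.4%) and a median of -0.72, with a middle range from -1.27 to -0.32. U2AF and the remaining Prpf genes showed 8 falls of 9 (88.9%) and a median of -0.89. They reached furthest, with a lowest value of -2.24. Falls of at least 2-fold made up 14 of 18 hnRNP genes, 5 of 9 SR genes, 10 of 21 snRNP genes and 4 of 9 in the last class. At an unadjusted p under 0.05 (limma), 9 of 9 SR genes and 16 of 21 snRNP genes were lower. So were 16 of 18 hnRNP genes and 8 of 9 in the last class, beside 3297 of all 12393 genes. Over 11 settings that kept all arrays, the adjusted count ran from 4 to 9 for SR and from 6 to 16 for snRNP genes. The order of their shares differed between settings. The mean level of the hnRNP genes was log2 11.97 and 11.89 on the stem arrays and 10.67 and 10.77 on the enterocyte arrays. For SR genes these means were 11.46 and 11.37 against 10.52 and 10.47, and for snRNP genes 10.44 and 10.46 against 9.72 and 9.56. In each class the arrays of the groups did not overlap. The difference between classes was not tested, since genes are not replicates and an exact permutation test of 2 against 2 arrays cannot go below p = 0.333. Of 15 alternative settings, 6 leave the class medians as they are or shift all classes alike. In the other 9 the hnRNP median was the lowest of the 4 classes. The snRNP median was nearest 0 in 8 of these 9, the exception being without enterocyte replicate 1, and on each gene's dimmest probe set it was -0.17. That value includes 4 snRNP probe sets below background in both groups, the dimmest of Prpf6, Sf3b5, Sf3b6 and Snrpb2. Among SR and hnRNP probe sets 0 lay below background.

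**Figure D2:**
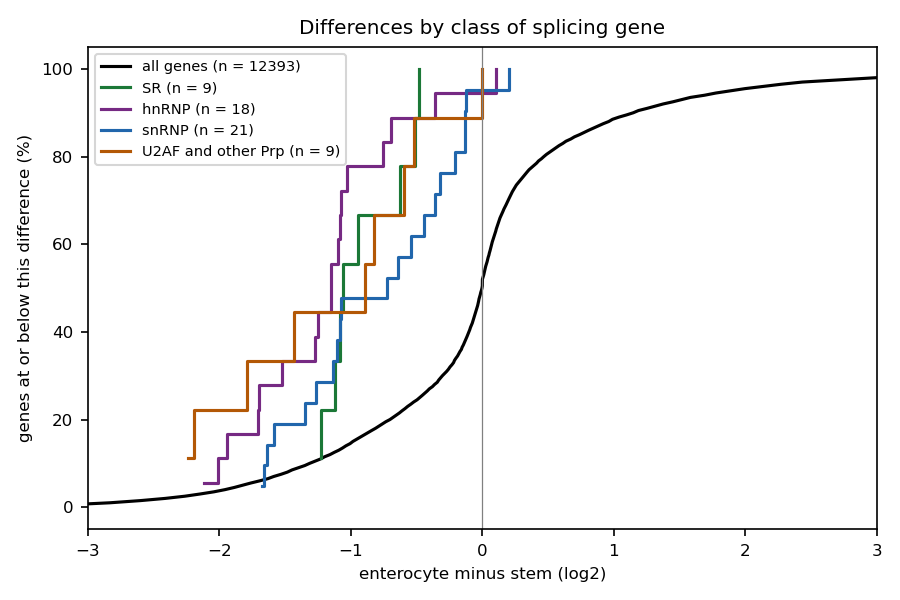
Cumulative share of genes (%) at or below each log2 difference, enterocyte minus stem, for each class of splicing gene and for all 12393 genes in black. At the median the hnRNP curve lies furthest left, at -1.15, and the snRNP curve nearest 0, at -0.72, while the U2AF and other Prp curve reaches furthest left at its foot, at -2.24.

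Serine- and arginine-rich (SR) proteins act as activators of exon inclusion. Srsf5 read log2 12.28 and 11.998 on the stem arrays and 10.78 and 11.04 on the enterocyte arrays. It fell 2.35-fold, the largest fall of the class (-1.23 ± 0.16 SE, n = 2 arrays per group, adjusted p = 0.0137, limma). Srsf1, a founding member of the family that promotes use of nearby splice sites, read 12.79 and 12.67 against 11.47 and 11.54. Its fall was 2.34-fold (-1.23 ± 0.07 SE, adjusted p = 0.00419). Srsf6 read 11.97 and 11.83 against 10.99 and 10.57 (-1.12 ± 0.18 SE, adjusted p = 0.0217). In all 3 genes each enterocyte array lay well below each stem array. Srsf3, which also couples splicing to mRNA export, read 12.52 and 12.45 against 11.50 and 11.37, a 2.08-fold fall (-1.06 ± 0.08 SE, adjusted p = 0.00544). Srsf4 fell 2.11-fold. Srsf11 had the smallest difference of the class, at 11.03 and 10.92 against 10.45 and 10.54, and still passed (-0.48 ± 0.08 SE, adjusted p = 0.0209). Srsf2, Srsf9 and Srsf10 were lower on both enterocyte arrays but missed the threshold, with differences of -0.62, -0.51 and -0.95 and adjusted p = 0.0502, 0.0904 and 0.0576. For Srsf10 the enterocyte arrays stood apart from each other, at 8.005 and 8.59, below stem arrays at 9.26 and 9.23.

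The hnRNP genes bind nascent transcripts, and many act as silencers of exons. Hnrnph3, of the hnRNP H and F family that binds runs of G, read 10.23 and 10.21 on the stem arrays and 7.999 and 8.20 on the enterocyte arrays. It fell 4.34-fold (-2.12 ± 0.09 SE, adjusted p = 0.00323, limma). Hnrnpdl, a relative of the AU-rich element binding protein hnRNP D, read 13.07 and 13.15 against 10.97 and 11.23, a 4.04-fold fall (-2.01 ± 0.12 SE, adjusted p = 0.00405). Hnrnpa1, the best known splicing silencer of the class, read 11.98 and 11.99 against 9.88 and 10.20. It fell 3.85-fold (-1.95 ± 0.13 SE, adjusted p = 0.00495). In each of these both enterocyte arrays lay far below both stem arrays. Hnrnph1 and Hnrnpu, the latter a nuclear matrix and chromatin-associated RNA-binding protein, fell 3.27-fold and 3.24-fold, and Hnrnpd 2.87-fold. A middle group fell between 2.04-fold and 2.42-fold on their brightest probe sets: Hnrnpl, Hnrnpm, Hnrnpc, Hnrnpr, Hnrnpul1, Hnrnpk, Hnrnpa2b1 and Hnrnpul2. The dimmer of the Hnrnpc probe sets gave 0.54 and was not called. Other Hnrnpk probe sets gave -0.50, which was called, and -0.14 and -0.21, which were not. The other Hnrnpul2 probe set, at -0.43, and the dimmest of Hnrnpr, at -0.88, were not called. Of the middle group Hnrnpa2b1, which partners hnRNP A1 in core hnRNP particles, read 13.33 and 13.21 against 12.09 and 12.30 (-1.07 ± 0.11 SE, adjusted p = 0.00865). Hnrnpf and Hnrnpab fell 1.69-fold and 1.62-fold on their brightest probe sets.

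Values within the hnRNP H and F family were spread out, and differences between its genes were not tested. Hnrnph1 and Hnrnph3 fell by over 3-fold. Hnrnph2 was 10.77 and 10.71 in the stem and 10.19 and 10.57 on the enterocyte arrays and did not pass (difference -0.36, adjusted p = 0.187). Hnrnpll was the hnRNP gene with the smallest difference. It encodes a relative of hnRNP L known for switching Ptprc splicing in lymphocytes. It read 10.72 and 10.68 in the stem and 10.80 and 10.80 on the enterocyte arrays (0.10 ± 0.05 SE, adjusted p = 0.246), next to Hnrnpl at -1.28. Lymphocyte markers were higher in the same enterocyte arrays, all 9 of 9 measured passing the test, and their part in the Hnrnpll value was not tested.

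Differences of the snRNP genes ranged from -1.68 to 0.20. The Sm proteins form the ring around the snRNA of each major spliceosomal particle except U6. Snrpg read 13.00 and 12.89 in the stem and 11.49 and 11.08 on the enterocyte arrays, a 3.16-fold fall (-1.66 ± 0.17 SE, adjusted p = 0.00922, limma). Snrpe read 13.09 and 13.17 against 12.05 and 11.95 and fell 2.19-fold (-1.13 ± 0.07 SE, adjusted p = 0.00457). Snrpd3 read 11.76 and 11.88 against 10.83 and 10.66 and fell 2.11-fold (-1.07 ± 0.10 SE, adjusted p = 0.00745). All 3 were separated between the groups, although the dimmest of the Snrpd3 probe sets gave 0.51 and was not called. Snrpb fell only 1.36-fold. Snrpn, its imprinted relative of neurons, lay at the background level, with 5.91 and 5.88 against 6.14 and 6.05, and did not pass (adjusted p = 0.0891).

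The U2 snRNP binds the branch point. Snrpb2 and Snrpa1, which encode a pair of proteins specific to the U2 particle, both fell. Snrpb2 read 10.99 and 11.36 against 9.52 and 9.47, a 3.203-fold fall (-1.68 ± 0.16 SE, adjusted p = 0.00762), and the mean over its 3 probe sets was -0.87. The dimmest of the 3 lay below background in both groups. Snrpa1 read 10.79 and 10.96 against 9.31 and 9.17, a 3.11-fold fall (-1.63 ± 0.10 SE, adjusted p = 0.00414). Snrpc, a protein of the U1 snRNP that helps to recognise the 5' splice site, had the smallest difference of the class, at 10.13 and 10.17 against 10.05 and 10.00 (-0.12 ± 0.06 SE, adjusted p = 0.209).

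SF3A and SF3B clamp the U2 snRNP onto the branch point. Of their 9 genes 6 fell. In SF3A, Sf3a2 read 11.52 and 11.62 against 10.19 and 9.77 and fell 3.01-fold (-1.59 ± 0.18 SE, adjusted p = 0.0106, limma). Its other probe set gave -0.41 and was not called. Sf3a3 read 9.70 and 9.58 against 8.56 and 8.502 and fell 2.15-fold (-1.11 ± 0.07 SE, adjusted p = 0.00463), with its other probe set at 0.0024. Sf3a1, the scaffold of the same heterotrimer, overlapped between the groups, at 9.07 and 9.08 against 9.13 and 8.75 (adjusted p = 0.564). In SF3B, Sf3b3 read 10.39 and 10.38 against 9.34 and 8.90 (-1.27 ± 0.18 SE, adjusted p = 0.0167). Sf3b1, the large subunit that cradles the branch point, read 11.90 and 11.96 against 11.15 and 11.43, a 1.56-fold fall (-0.64 ± 0.12 SE, adjusted p = 0.0322). Its other 2 probe sets gave -0.78 and -0.92 and were not called. Sf3b2 and Sf3b5 fell 1.65-fold and 1.28-fold on their brightest probe sets, whereas Sf3b4 (-0.13) and Sf3b6 (-0.32) did not pass.

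The tri-snRNP brings U4, U6 and U5 to the assembling spliceosome. Prpf31, which holds U4 and U6 together with U5, read 8.91 and 9.10 in the stem and 7.88 and 7.43 on the enterocyte arrays, a 2.54-fold fall (-1.35 ± 0.20 SE, adjusted p = 0.0181, limma). Its other probe set gave -0.095 and was not called, and the mean of both was -0.72. Prpf3, of the U4/U6 particle, read 8.99 and 8.90 against 7.81 and 7.92 and fell 2.11-fold (-1.08 ± 0.08 SE, adjusted p = 0.00507). Prpf6, the bridge to U5, read 9.27 and 9.42 against 8.82 and 8.78 (-0.54 ± 0.08 SE, adjusted p = 0.0184). The groups did not overlap for any of these. Prpf8, the large U5 protein at the catalytic centre, read 10.19 and 10.07 against 9.97 and 9.88 and did not pass (-0.21 ± 0.08 SE, adjusted p = 0.131).

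The last class held the 2 largest falls of all 57 genes. Prpf4b, a kinase that phosphorylates tri-snRNP proteins, read 10.36 and 10.31 in the stem and 8.08 and 8.11 on the enterocyte arrays, a 4.73-fold fall (-2.24 ± 0.05 SE, adjusted p = 0.00261, limma). This rested on its brightest probe set, as its other 5 did not pass, with differences between -0.53 and -0.27. Prpf19, the ubiquitin ligase that gives the Prp19 complex its name, read 12.44 and 12.38 against 10.33 and 10.10. It fell 4.56-fold (-2.19 ± 0.10 SE, adjusted p = 0.00339), and all 3 of its probe sets fell. Prpf39, a U1-associated factor, read 8.72 and 8.68 against 6.67 and 7.15 and fell 3.45-fold (-1.79 ± 0.19 SE, adjusted p = 0.0099), and its dimmest probe set, at -0.96, was not called. Prpf38a, Prpf38b and Prpf40b fell 1.43-fold, 1.85-fold and 1.77-fold.

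U2AF recognises the end of the intron, its small subunit reading the terminal AG and its large subunit the pyrimidine tract. The small subunit gene U2af1 read 11.998 and 11.94 against 10.56 and 10.51, a 2.69-fold fall (-1.43 ± 0.06 SE, adjusted p = 0.00308). The large subunit gene U2af2 fell 1.52-fold, from 10.13 and 10.08 to 9.54 and 9.46. The U2af1 relative U2af1l4 showed no separation, at 9.09 and 9.08 against 9.08 and 9.08 (-0.0040 ± 0.05 SE, adjusted p = 0.97). Its deposited value was exactly the same, 542.93, on stem replicate 2 and both enterocyte arrays, and the reason for this tie was not tested. Differences between subunits were not tested against each other, and probe sets can differ in how strongly they respond.

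Several probe sets measured 36 of the 57 genes, which allowed the same comparison on their other probe sets. Where these lie on the transcripts was not checked. Of the 141 probe sets 86 were lower, 2 higher and 53 not called in a fit over all probe sets, where 19.5% were lower and 17.3% higher. All probe sets fell in 11 of these 36 genes, among them Hnrnpdl (6), Hnrnpu (5), Hnrnpa2b1 (4), Hnrnpa1 (3), Srsf6 (3), Snrpa1 (3) and Prpf19 (3). In 19 genes some fell and none rose, and in 4 none was called. By class 17 of 28 SR probe sets, 36 of 50 hnRNP probe sets, 21 of 44 snRNP probe sets and 12 of 19 in the last class were lower.

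Opposite calls occurred in Srsf1 and Hnrnpf. Of the 6 Srsf1 probe sets 4 fell, and the dimmest rose from 7.59 and 7.34 in the stem to 8.42 and 8.22 on the enterocyte arrays (0.86 ± 0.14 SE, adjusted p = 0.0251, limma over all probe sets). For Hnrnpf the brightest probe set read 13.21 and 13.23 against 12.64 and 12.29, a fall of adjusted p = 0.0388. Its dimmest rose from 10.09 on both stem arrays to 10.77 and 10.71 (0.65 ± 0.05 SE, adjusted p = 0.00789). In all, 9 genes were below 0 on their brightest and above 0 on their dimmest probe set, and 7 of them were called lower on the brightest. Besides Srsf1 and Hnrnpf these 7 were Hnrnpc, Snrpd3, Snrpb2, Sf3b2 and Sf3a3, whose dimmest probe sets gave 0.54, 0.51, 0.11, 0.11 and 0.0024 and were not called. That of Snrpb2 lay below background in both groups. Another Sf3b2 probe set gave 0.56, also not called. The remaining 2, Srsf2 and Sf3b4, gave 0.14 and 0.19 on the dimmest and were called on neither. Probe sets that fell also differed in size. Of the 7 Hnrnpab probe sets 3 fell, by 0.70 on the brightest and by 1.87 on another. The other 4 were not called, with values up to 0.0146. Srsf6 fell by 1.12 on its brightest and by 2.005 on another.

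**Figure D3:**
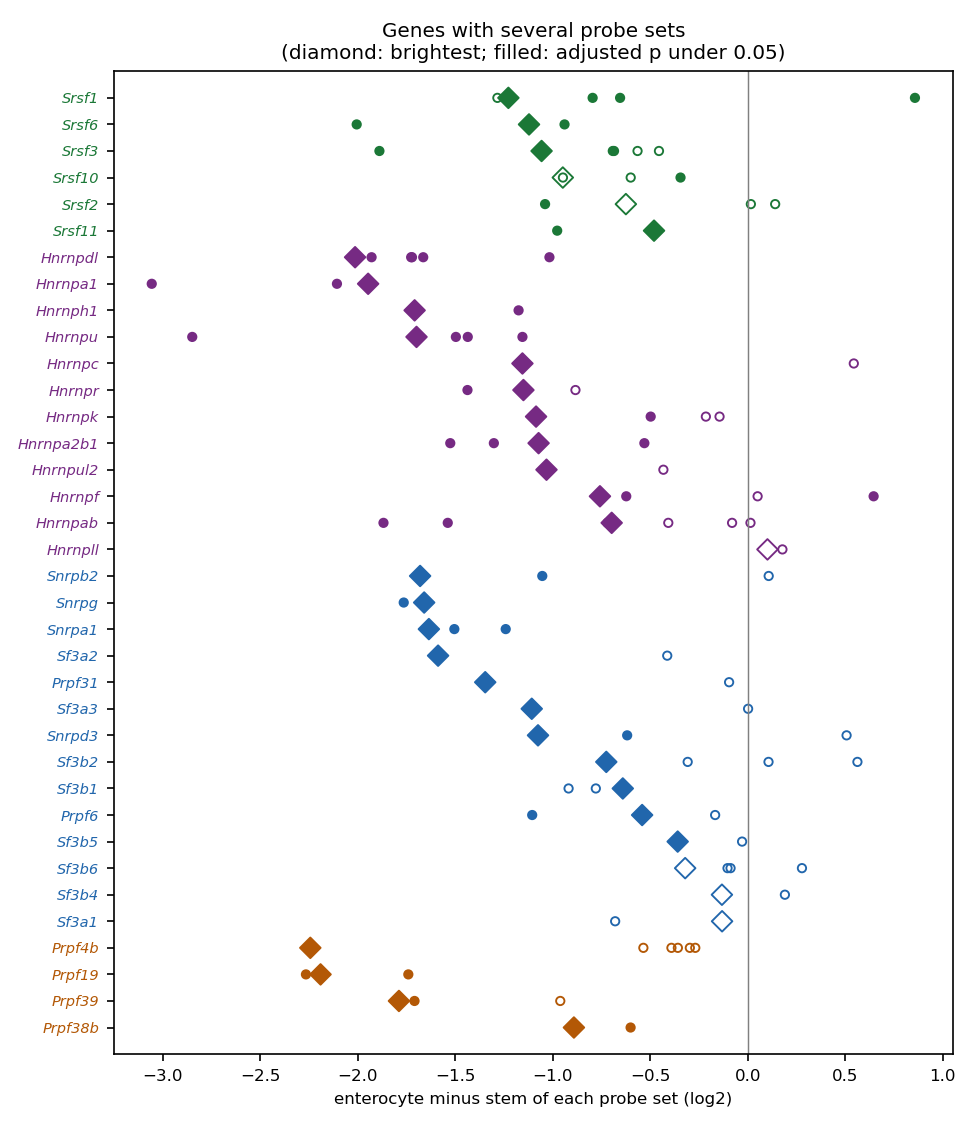
Log2 difference, enterocyte minus stem, of each probe set for the 36 splicing genes that have several, with the brightest as a diamond and filled marks where adjusted p is under 0.05. The filled marks right of 0 are 1 probe set of Srsf1 at 0.86 and 1 of Hnrnpf at 0.65.

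Because the genes moved together, their promoters were searched for 5 motifs, each on both strands, in the 300 bases from 250 before to 50 after each RefSeq start (GRCm38.p6). The motifs were CACGTG (the E-box of Myc and Max), CCGGAAG (an ETS core), TTTCGCGC (E2F), GCGCATGC (the core of an NRF1 site) and CCAAT (NF-Y). The motifs were counted separately. A promoter was found for 51 of the 57 genes, with 71 windows in all. The ETS core was unevenly spread: 12 of 18 snRNP genes held it (66.7%), as did 3 of 9 SR genes (33.3%), 2 of 16 hnRNP genes (12.5%) and 2 of 8 in the last class (25%), against 16.4% of the 9883 array genes with a promoter. The share of windows holding it was 33.8% among splicing genes and 14% among windows of array genes, or 8.86% among all promoters. CCAAT was in 11 of 16 hnRNP genes (68.8%), 5 of 8 in the last class (62.5%), 4 of 9 SR genes (44.4%) and 7 of 18 snRNP genes (38.9%). Of array genes 42.3% held it. The E-box was held by 7 of 51 splicing genes (13.7%) against 10.8%, the NRF1 core by 3 (5.88%) against 5.01%, and the E2F motif by 1 (1.96%) against 0.698%. Of the promoters of all genes, 7.15% held the E-box, 2.71% the NRF1 core, 0.323% the E2F motif and 37.4% CCAAT. Median GC content was 69.2% in the SR windows, 63.3% in hnRNP, 58.3% in the last class, 57.3% in snRNP and 59% in those of array genes. In the same order the median number of CpG dinucleotides was 38, 27, 25, 23 and 17. The ETS core was present in 16 of the 41 genes that fell (39%) and in 3 of the 10 that did not pass (30%). These matches are letters in a window, and binding was not measured.

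The stretches below show the ETS core ahead of the start, in the 3 snRNP genes with the largest fall that carry it there and in the first such gene of each other class. Each is 60 bases, 5′ to 3′ on the gene's strand, from RefSeq on GRCm38.p6, with CCGGAAG or its reverse complement CTTCCGG in capitals. They are Snrpb2 (chr2:143063009-143063068, plus strand), Snrpg (chr6:86371368-86371427, plus), Sf3a2 (chr10:80798632-80798691, plus), Srsf5 (chr12:80945439-80945498, plus), Hnrnpd (chr5:99979084-99979143, minus) and Prpf4b (chr13:34875431-34875490, plus).
Snrpb2: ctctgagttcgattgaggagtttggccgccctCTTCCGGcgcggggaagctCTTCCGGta
Snrpg: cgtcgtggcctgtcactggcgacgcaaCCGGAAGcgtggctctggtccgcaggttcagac
Sf3a2: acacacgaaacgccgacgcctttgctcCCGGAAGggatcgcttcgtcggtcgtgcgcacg
Srsf5: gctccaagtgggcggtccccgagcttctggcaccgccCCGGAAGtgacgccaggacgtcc
Hnrnpd: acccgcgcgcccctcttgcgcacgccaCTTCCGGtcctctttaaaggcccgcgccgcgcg
Prpf4b: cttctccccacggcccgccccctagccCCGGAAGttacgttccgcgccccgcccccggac
Snrpb2 carries 2 copies in this stretch, the nearer beginning 9 bases ahead of the start. In Srsf5 the core begins 23 bases ahead, in Prpf4b 71, in Sf3a2 76, in Snrpg 145 and in Hnrnpd 178.

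**Figure D4:**
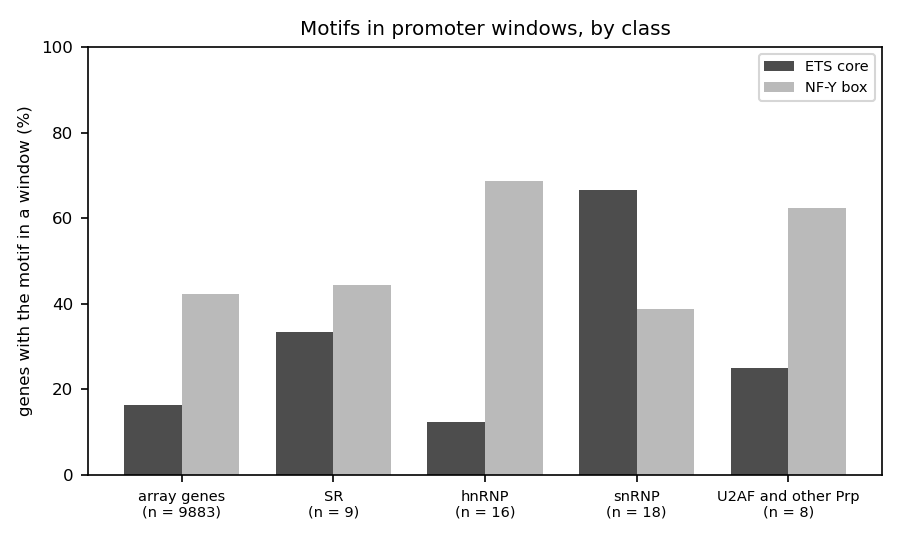
Share of genes (%) with the ETS core (dark) or the NF-Y box (light) in any promoter window, for genes on the array and for each class of splicing gene. The ETS core stands at 66.7% in snRNP genes and 12.5% in hnRNP genes, and the NF-Y box at 38.9% and 68.8%. In U2AF and other Prp genes the NF-Y box stands at 62.5%.

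Other genes of the splicing pathway were lower as well. Of 119 measured genes in 5 further lists 81 fell, 4 rose and 34 did not pass, with a median of -1.04, beside 22.4% lower and 18.2% higher over all genes. Each was read from its brightest probe set only. Where such a gene had several, as Snrnp48, Ddx39b, Tgs1, Srpk2 and Matr3 did, the others were not compared. Further snRNP proteins and the LSm ring showed 19 falls and 1 rise of 25 (median -1.07). The extremes both belong to the minor spliceosome, which removes a rare class of introns. Snrnp48, of its U11 particle, read 10.74 and 11.39 in the stem and 7.66 and 7.896 on the enterocyte arrays, a 9.77-fold fall (-3.29 ± 0.28 SE, adjusted p = 0.00656, limma). Snrnp25, of the same particle, read 9.23 and 8.92 against 10.72 and 10.14 and rose 2.55-fold (1.35 ± 0.26 SE, adjusted p = 0.0335). Among the Prp19 complex, helicases and catalytic step factors 17 of 29 fell and 0 rose, a 0 that also held at an unadjusted p under 0.05 in limma (median -0.98). Ddx39b, a helicase of early assembly and mRNA export, read 12.89 and 12.92 against 10.46 and 10.30, a 5.77-fold fall (-2.53 ± 0.08 SE, adjusted p = 0.00261).

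The machinery that builds snRNPs and the kinases that phosphorylate SR proteins were mostly lower too. Of 15 genes of the SMN complex and snRNP assembly 12 fell and 2 rose (median -1.32). Tgs1, which makes the trimethyl cap of snRNAs, fell 3.75-fold (-1.91 ± 0.40 SE, adjusted p = 0.0395, limma), and Gemin7, of the SMN complex, rose 1.83-fold (0.87 ± 0.15 SE, adjusted p = 0.0244). Strap, the other rise, was named after its value was seen and differed by 0.23. Of 11 kinases, phosphatases and importers of SR proteins 9 fell and 1 rose (median -1.35). Srpk2, an SR protein kinase of the cytoplasm, read 9.27 and 9.77 against 6.57 and 6.79, a 7.16-fold fall (-2.84 ± 0.22 SE, adjusted p = 0.00582). Dyrk1a rose 1.61-fold (0.69 ± 0.13 SE, adjusted p = 0.0325). Also named after their values were seen, the nuclear SR kinases Clk1 and Clk2 fell 3.50-fold and 3.05-fold. Among other splicing regulators 24 of 39 fell and 0 rose, a 0 that also held at an unadjusted p under 0.05 in limma (median -0.84). Matr3, a nuclear matrix RNA-binding protein, read 12.76 and 12.69 against 9.87 and 10.83, a 5.17-fold fall with the enterocyte arrays apart from each other (-2.37 ± 0.38 SE, adjusted p = 0.0217).

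**Figure D5:**
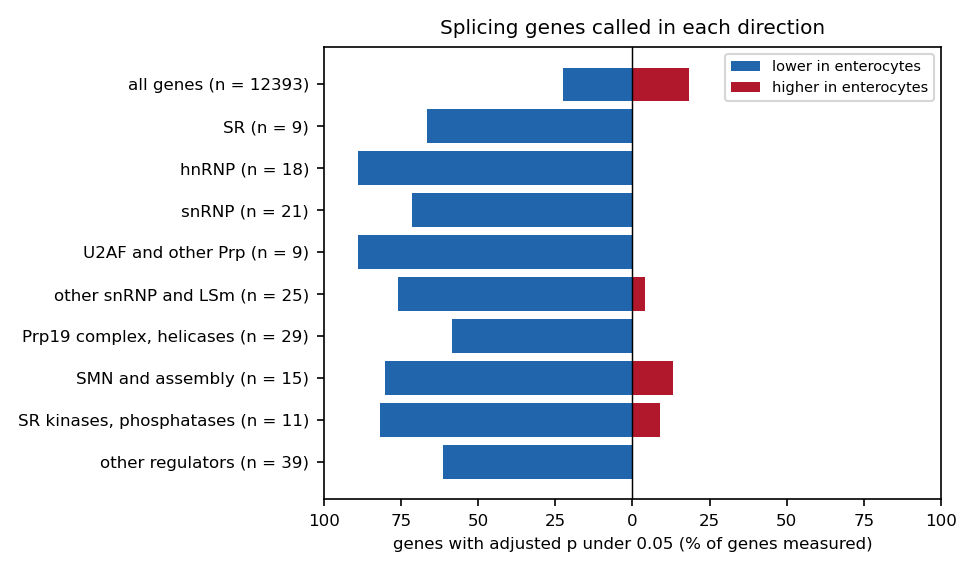
Share of measured genes (%) called lower (left, blue) or higher (right, red) in enterocytes by limma, for all genes, the 4 classes and 5 further splicing lists. All genes stand at 22.4% lower and 18.2% higher, and the lowest share lower among the splicing lists is 58.6%, for the Prp19 complex and helicases.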

How the data were processed

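The authors deposited 1 normalized intensity for each probe set and array, not log-transformed (7.93 to 41703.8). RMA is named in the submitters' processing notes without a version. Its settings are not given here. Log2 of these deposited values was taken with no pseudocount. Of 22690 probe sets (64 controls), 20380 had exactly 1 gene symbol in the platform annotation, 691 had several and 1606 were not listed. Each of 12393 genes was read from its brightest probe set, which gave 57 members. Another 15 probe sets with a splicing symbol among several were left out. Groups were compared with limma 3.58.1 in R 4.3.3 (lmFit, eBayes, Benjamini-Hochberg over all genes, two-sided, 2 residual and 1.23 prior degrees of freedom). The background level, log2 5.95, is the 90th percentile of 27 genes of other organs. The steps were tested on simulated data. The members, classes and lists were chosen with earlier results of these data known. Full values are given for the 3 largest called differences of each class or snRNP subgroup, the smallest of each class, genes with opposite probe sets, and Srsf1, Srsf3, Hnrnpa1, Hnrnpa2b1, Sf3b1, Prpf8 and U2af1. Further lists give their largest called difference in each direction. The number of arrays limits the precision.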

Additional observations from a re-analysis of the deposited data

How the results depend on the processing

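Of 57 splicing genes 45 were called lower; counts stayed within 1.5 times of this with the replicate block (41, and 2 of 30 genes given in full lost their call), quantile normalization, array weights, the mean or median over probe sets, a filter on dim genes and values raised to background (36). Replicate numbers did not pair the samples in the labels (correlation of deviations 0.0504). Over all genes 20.6% were lower with the replicate block and 15.5% with values raised to background. The dimmest probe set gave 28 lower (49.1%) and 2 higher, where 1943 of 12393 genes were lower (15.7%) and 1950 higher. Probe sets without _s_at, _x_at or _a_at gave 29 of 49 lower (59.2%) and 1 higher. In that setting 1999 of 10529 genes were lower (19%) and 1838 higher. Those 2 settings gave 10 and 9 hnRNP and 6 and 9 snRNP genes lower. Leaving out 1 array gave 0 to 22 genes lower. By class these were 0 to 4 SR, 0 to 9 hnRNP, 0 to 4 snRNP and 0 to 5 in the last class. The median of the last class ran from -1.02 to -0.76 in these fits. Each of them has fewer samples and leaves 1 array in a group, and the cause of the lower counts was not tested. With the mean, median, dimmest and restricted probe sets the overall median was -0.75, -0.73, -0.60 and -0.64. In SR genes the mean, median and restricted sets gave -0.73, -0.72 and -0.68. In snRNP genes the dimmest and restricted sets gave -0.17 and -0.36, and in the last class the 4 gave -0.75, -0.75, -0.60 and -0.82. Centring on 9 reference genes raised the median of all genes by 0.14, with 2678 lower and 2934 higher against 2779 and 2257. With it 41 splicing genes were lower, at a median of -0.94 (last class -0.75, and -0.91 under quantile normalization). The reference genes were not all stable: 3 were called lower and 2 higher in the main fit, with differences from -1.52 to 0.82. Direction turned on the dimmest probe set for 9 genes, of which 7 were called lower on the brightest. Those given in full are Hnrnpf (0.65, also with restricted sets), Srsf1 (0.86), Snrpd3 (0.51), Snrpb2 (0.11, below background in both groups, also restricted) and Sf3a3 (0.0024). The cause was not tested.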

Other observations

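The 15 probe sets that the annotation assigns to several symbols, a splicing gene among them, were not used to read any gene above. Whether they also measure some of the 57 genes was not checked. Of these 15 probe sets 11 were lower in enterocytes, 0 higher and 4 not called (limma over all probe sets). Their median log2 difference was -1.40, with a range from -2.18 to 0.47. Exactly equal values in both replicates of a group occurred in 1268 of 12393 genes for the stem arrays and in 1048 for the enterocyte arrays. Among the 57 splicing genes this held for 0 in the stem and 1 in the enterocyte arrays, U2af1l4.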
